A study of Mus musculus with 1753 samples.

Results

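The insulin-like growth factor (IGF) system was followed through single fibroblasts and mural cells of adult mouse skeletal muscle. Mural cells coat the blood vessels and comprise smooth muscle cells and pericytes. The genes chosen were the ligands Igf1 and Igf2, the receptors Igf1r and Igf2r, and the binding proteins Igfbp2 to Igfbp7, which make 10 of the 46517 genes in the table. They were picked by name, with earlier results of these data already known, and all 10 were found. Together they took 0.574% of all gene counts.

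IGF1 and IGF2 are secreted peptides that act mainly through the tyrosine kinase receptor IGF1R. IGF2R, the cation-independent mannose-6-phosphate receptor, takes up IGF2 and carries it to the lysosome. The IGF binding proteins hold the ligands in the extracellular space, and proteases such as PAPP-A release them. In skeletal muscle IGF1 is known as a growth factor for the muscle fibres, and IGF2 is an imprinted growth factor that is high before birth.

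The study sorted cells by FACS from hindlimb muscle of male mice aged 10 to 20 weeks and made a Smart-seq2 library from each of 1753 labelled cells, which lie in 10 clusters and 5 strain labels. C57BL6 gave 373 cells, caught by antibodies against PDGFRα or PDGFRβ, and every sort excluded CD31-positive cells. The other labels name reporter lines on a C57BL6 background, in which the promoter of the named gene drives a fluorescent protein. These were Acta2GFP with 157 cells, Cspg4dsRED with 181, PdgfrbGFP with 630 and the PdgfraGFP - PdgfrbGFP pool, called the pool hereafter, with 412. The study names no treatment of the mice. It writes the Pdgfra reporter as an altered allele of Pdgfra itself and the other reporters as transgenes. Acta2GFP muscle had also been digested with elastase. For one suspension, soleus muscles of a Pdgfra reporter mouse and a Pdgfrb reporter mouse had been mixed. The labels do not say which cell came from which mouse, so the strain label served as the replicate, and p-values measure the spread between strain labels. Cells of 1 mouse may stand in both PdgfrbGFP and the pool, since the labels do not tell, which bears on every n and most on the comparison of muscles, which has only these labels. Strain label, reporter and sort gate cannot be told apart.

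Fibroblasts numbered 1566 and mural cells 187. Following the study, clusters 1, 3, 5, 6 and 8 were called endomysial (1116 cells, around single muscle fibres), clusters 2 and 9 perimysial (328 cells, around fibre bundles) and cluster 4 paramysial (60 cells). Cluster 7 was mural, and cluster 10 (62 cells) has no class name. The cells had between 46097 and 1055869 gene counts (median 258251), and the fibroblasts of Cspg4dsRED were the shallowest with a median of 113263. The markers fitted the classes in part. Myh11, a smooth muscle myosin, was detected in 95.7% of mural cells and at most 0.538% of any fibroblast class. Dcn, a matrix proteoglycan, was detected in every fibroblast but also in 54.5% of mural cells, and Col1a1 in 35.8% of mural cells. Of the mural markers, Rgs5 was detected in only 20.3% of mural cells. Acta2 was detected in 98.4% of mural, 47.9% of perimysial and 41.9% of cluster 10 cells. The fibroblast markers Lum and Cd34 were detected in 22.9% and 26.5% of perimysial cells. Pdgfra was detected in only 3.66% of perimysial cells. Markers of endothelial, immune, Schwann, fat and satellite cells were each detected in at most 3.05% of the cells of any class, and those of muscle fibres in up to 26.7%. The clusters had been made by the authors from the same counts, so a test between classes gives the size of a difference against the spread of strain labels and is not independent evidence of the classes.

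Levels below are scaled counts, that is, counts of a gene in a cell after all its gene counts were scaled to 500000. A gene was called detected in a cell at 100 or more scaled counts. The study's methods use 100 counts per cell in their tests, without saying whether these are scaled. A level is given as the mean over strain labels ± SD, and n is the number of strain labels with 3 or more cells. Counts of different genes were compared only per kilobase of exon.

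All 10 genes are protein coding, and their positions are on the genome build GRCm38. Igfbp2 (chromosome 1, 72824503 to 72852474, plus strand) and Igfbp5 (chromosome 1, 72857932 to 72874884, minus strand) are neighbours. Igf1 lies on chromosome 10 (87858265 to 87937042), Igf2 on chromosome 7 (142650766 to 142666816) and Igf1r on chromosome 7 (67952827 to 68233668). Igf2r lies on chromosome 17 (12682406 to 12769664), Igfbp3 on chromosome 11 (7206086 to 7213923) and Igfbp4 on chromosome 11 (99041244 to 99054392). Igfbp6 lies on chromosome 15 (102144362 to 102149511) and Igfbp7 on chromosome 5 (77349240 to 77408041). The exons of Igf2 share 62.8% of their bases with Gm49394 on the same strand, which has no row in the table, and 1.71% with the antisense gene Igf2os. Igfbp7 shares 7.03% with Polr2b, a protein coding gene on the opposite strand. Whether counting used the strand was not stated, so counts of these overlaps may be split or mixed.

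The promoters of 3 members whose levels did not overlap between fibroblasts and mural cells are printed here, as 250 bases before the RefSeq start of the transcript in GRCm38.p6. Igfbp3, which did not overlap either, is not among them. Igf1 and Igfbp6 were near 0 in mural cells, and Igfbp7 was higher there. The windows are chr10:87860861-87861110 on the plus strand for Igf1, chr15:102143936-102144185 on the plus strand for Igfbp6 and chr5:77408046-77408295 on the minus strand for Igfbp7. That of Igf1 lies inside the gene span given above, as the RefSeq start used is downstream of the start of that span. Capitals mark the letters TATAAA or the letters GGGCGG or CCAAT on either strand, which do not overlap each other here.
Igf1: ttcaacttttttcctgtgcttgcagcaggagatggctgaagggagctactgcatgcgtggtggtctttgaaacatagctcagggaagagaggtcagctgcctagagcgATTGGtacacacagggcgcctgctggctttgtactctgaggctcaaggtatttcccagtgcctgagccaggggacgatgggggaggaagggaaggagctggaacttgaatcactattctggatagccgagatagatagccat
Igfbp6: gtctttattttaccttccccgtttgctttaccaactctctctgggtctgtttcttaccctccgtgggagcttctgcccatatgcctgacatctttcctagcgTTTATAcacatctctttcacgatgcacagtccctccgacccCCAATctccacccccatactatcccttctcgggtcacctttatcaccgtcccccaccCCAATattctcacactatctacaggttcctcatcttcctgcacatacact
Igfbp7: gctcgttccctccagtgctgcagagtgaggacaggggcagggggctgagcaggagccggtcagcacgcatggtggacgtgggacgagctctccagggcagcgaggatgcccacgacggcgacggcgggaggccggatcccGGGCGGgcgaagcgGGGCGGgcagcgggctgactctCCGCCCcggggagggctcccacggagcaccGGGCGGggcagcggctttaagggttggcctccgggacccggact
The Igfbp7 window had 74% G or C and 26 CG dinucleotides, against 49.6% and 7 for Igfbp6 and 52.8% and 5 for Igf1. Over 32851 RefSeq promoters of the same length the medians were 52.4% and 6. GGGCGG occurred 4 times in the Igfbp7 window and not in the other two, TATAAA once in that of Igfbp6, and CCAAT 2 times in Igfbp6 and 1 time in Igf1. Of all promoters, 32.7% held GGGCGG, 12.4% TATAAA and 33.8% CCAAT.

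Igf1 was a fibroblast transcript in these cells. Mean scaled counts in fibroblasts were 247 in Acta2GFP, 208 in C57BL6, 65.2 in Cspg4dsRED, 224 in the pool and 208 in PdgfrbGFP. In mural cells of the same strain labels they were 9.71, 9.11, 0.285, 3.88 and 1.64. The ranges did not overlap, and Cspg4dsRED was the lowest of both. Igf1 was detected in 871 of 1566 fibroblasts (55.6%, exact Clopper-Pearson 95% interval 53.1 to 58.1%). It was detected in 0 of 187 mural cells, which allows a share of up to 1.60% (3 counts of the total, the limit used for every 0 here), although 87 of them had at least 1 count and the highest held 88.5 scaled counts. These intervals take all cells as independent and cover counting error only. Cells share strain labels and plates, and the spread between strain labels is not in the intervals. The reads also carry no molecular identifiers.

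Among fibroblasts, Igf1 was highest in the paramysial cluster 4, at 409 ± 124 (SD, n = 4), where 56 of 60 cells had it detected. Cluster 8 followed with 325 ± 55.6 (n = 4) and cluster 5 with 300.2 ± 179 (n = 3). Clusters 9, 2, 10, 3 and 1 ran from 228 down to 140.4, and cluster 6 was lowest at 111 ± 49.1 (n = 4). Without the pool cluster 5 stood at 403 (n = 2) and cluster 4 at 379.9 (n = 3). Only the step from cluster 6 to the mural cluster 7 separated all strain labels of neighbours in this order, so the order within fibroblasts is loose. Cells also differed within a cluster: in cluster 6, 113 of 231 cells had under 20 scaled counts while 86 had 100 or more.

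Igf2, the other ligand, had the opposite distribution. Mean scaled counts in mural cells were 132 in Acta2GFP, 69.1 in C57BL6, 44.7 in Cspg4dsRED, 149.8 in the pool and 71.5 in PdgfrbGFP. In fibroblasts they were 5.86, 8.66, 12.9, 38.5 and 10.8. The lowest mural mean was above the highest fibroblast mean, although in CPM of the summed counts, the scale of the test, the ranges overlapped, with 85.3 in the Cspg4dsRED mural cells and 91.1 in the pool fibroblasts. Few cells carried the signal, with Igf2 detected in 42 of 187 mural cells (22.5%, 16.7 to 29.1%) and in 73 of 1566 fibroblasts (4.66%, 3.67 to 5.83%).

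Outside the mural cells, Igf2 stood out in the paramysial cells of the pool alone, at 183, against 1.01, 19.1 and 0 in Acta2GFP, C57BL6 and PdgfrbGFP. All 17 paramysial cells with Igf2 detected came from the pool, and all 17 from its 45 soleus cells. Acta2GFP, C57BL6 and PdgfrbGFP held only 6, 3 and 4 paramysial cells, so strain label and number of cells cannot be told apart there. Muscle fibre markers were also highest in these pool cells, summing to 255 scaled counts against 40.3 in Acta2GFP, 38.6 in C57BL6 and 0 in PdgfrbGFP, and their part in the Igf2 level was not tested. H19, the non-coding RNA of the imprinted locus that it shares with Igf2, was detected in 11 of the 46 paramysial cells of the pool, and 7 of these 11 had Igf2 detected as well. In the other 1520 fibroblasts Igf2 was detected in 56 cells and H19 in 10, with 0 cells in common. These are too few to tell whether the RNAs kept apart. In mural cells Igf2 was detected in 42 and H19 in 2, and both of these 2 also had Igf2 detected. Cluster 6 came next among fibroblasts with an Igf2 level of 29.0 ± 16.3 (n = 4) and 23 of 231 cells, and the other fibroblast clusters were at or below 21.7.

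The receptors were low everywhere. Igf1r, the signalling receptor, was detected in 50 of 1753 cells, and its mean level per cluster ran from 0.442 to 28.4 scaled counts. Its paramysial value of 28.4 ± 33.7 (n = 4) rested on 3 C57BL6 cells at 75.7 and 4 PdgfrbGFP cells at 28.8. Igf2r was detected in 245 of 1753 cells, with cluster means of 13.9 to 69.5. Cluster 3 was the most even high group of Igf2r, at 65.6 ± 10.7 (n = 4) and 104 of 440 cells. Per kilobase of exon, Igf1r was the lowest member in fibroblasts at 0.535 scaled counts and Igf2r stood at 4.38. At these levels a cell without a count cannot be read as a cell without the receptor.

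**Figure D1:**
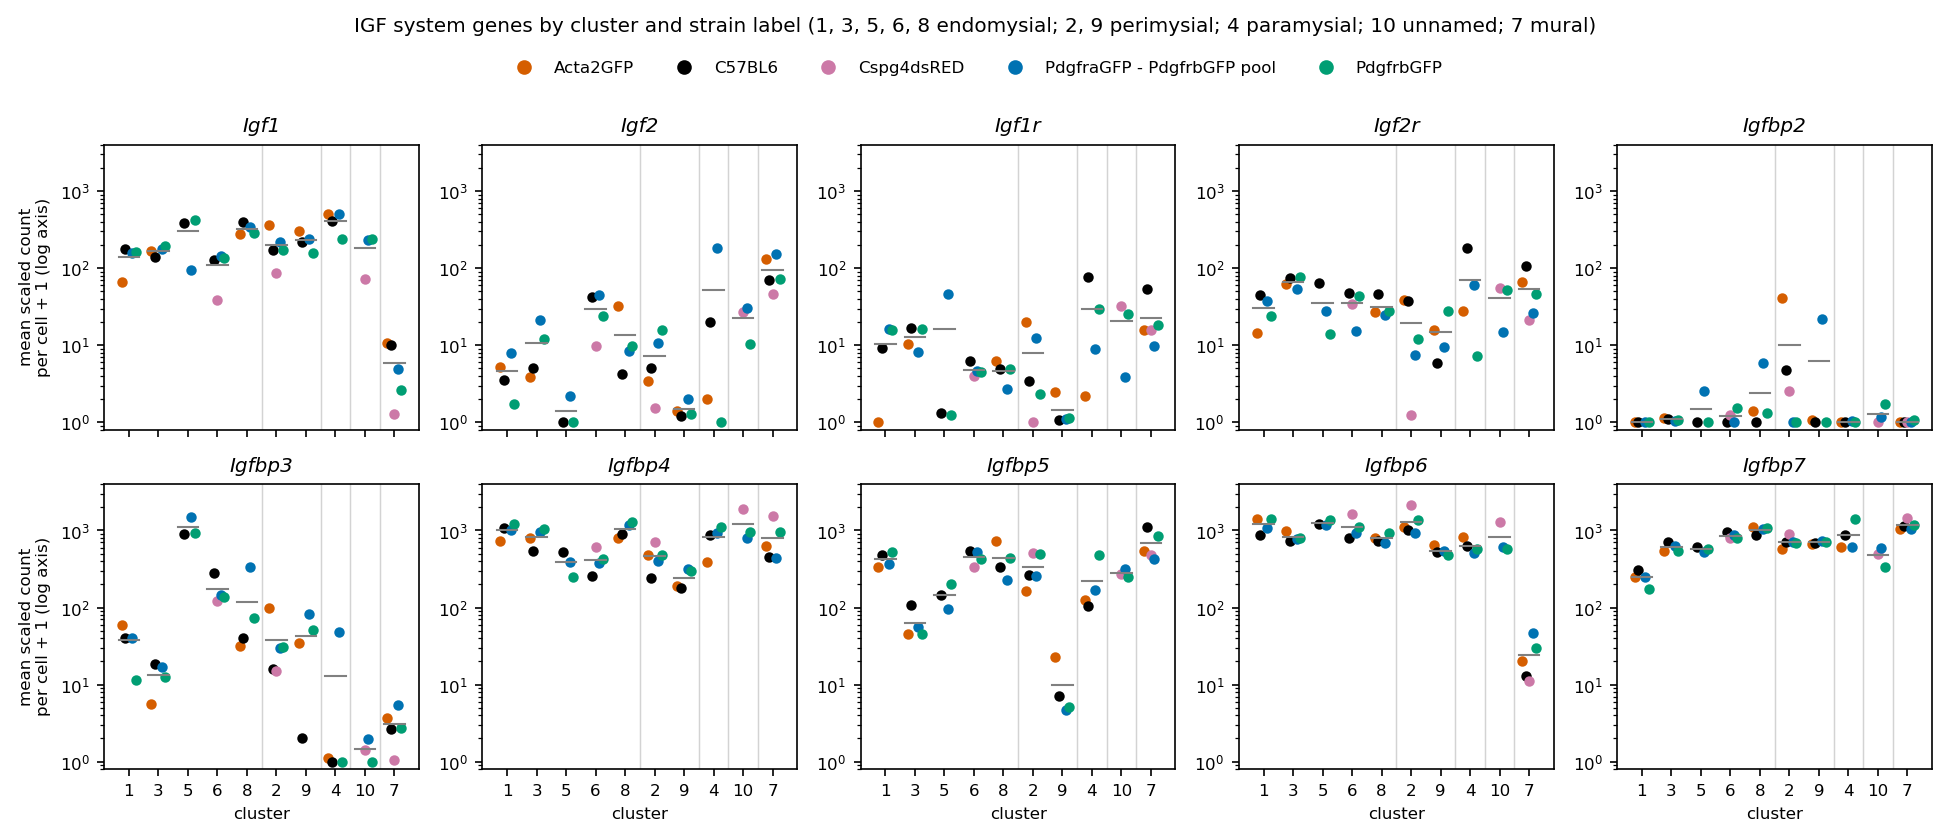
Mean scaled counts per cell plus 1 on a log axis for the 10 IGF system genes, with 1 point per cluster and strain label of 3 or more cells and a grey line at the mean over strain labels. Igf1 and Igfbp6 drop in the mural cluster 7, Igf2 and Igfbp5 are high there, Igfbp3 peaks in cluster 5 at 1113, and Igfbp5 falls to 8.80 in cluster 9.

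Of the binding proteins, Igfbp6 and Igfbp7 were the most abundant per length in fibroblasts, at 921 and 568 scaled counts per kilobase, followed by Igfbp4 at 177, Igfbp5 at 43.9, Igfbp3 at 20.7 and Igfbp2 at 1.17. In mural cells the order was Igfbp7 at 969, Igfbp4 at 182, Igfbp5 at 113, Igfbp6 at 20.7, Igfbp3 at 0.672 and Igfbp2 at 0.00931. The leading binding protein of a cell, per kilobase, was Igfbp6 in 68.0% of fibroblasts and Igfbp7 in 30.6%. In mural cells it was Igfbp7 in 98.4% and Igfbp6 in none of the 187. Fibroblasts had 3.23 ± 0.11 (SD, n = 5) of the 6 binding protein genes detected per cell and mural cells 2.50 ± 0.18 (n = 5). Cluster 5 had 3.78 and cluster 8 had 3.71 per cell, while cluster 9 had 2.76.

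Igfbp2 was hardly present. All cells together held 961 counts of it in 36 cells, and it was detected in 5 fibroblasts, of which 2 lay in cluster 2, 1 in cluster 8 and 2 in cluster 9.

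Igfbp3, the main carrier of IGFs in blood, marked cluster 5. Its level there was 899 in C57BL6, 1516 in the pool and 926 in PdgfrbGFP, a mean of 1113 ± 349 (n = 3), and 21 of 31 cells had it detected. The pool gave only 3 of these cells. Every strain label of cluster 5 lay above those of the next cluster, cluster 6, at 170 ± 73.3 (n = 4) with 66 of 231 cells. Cluster 8 had 118 ± 143 (n = 4), in which the pool at 331 was far from 30.6 in Acta2GFP, 39.4 in C57BL6 and 72.1 in PdgfrbGFP. The other fibroblast clusters were at or below 41.8. Igfbp3 was detected in 0 of 187 mural cells and 0 of 62 cluster 10 cells, which allows shares of up to 1.60% and 4.84%.

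Igfbp4, which binds IGFs and is cut by PAPP-A, was detected in 82.7% of all cells. Its level was 1220.3 ± 605 (n = 3) in cluster 10, 1032 ± 228 (n = 4) in cluster 8 and 1005 ± 195 (n = 4) in cluster 1. It was 802 ± 464 (n = 5) in mural cells, and clusters 2, 6, 5 and 9 were lowest, at 464 down to 244 ± 71.2 (n = 4). In both cluster 10 and the mural cells the Cspg4dsRED cells were the highest, at 1914 and 1542, and without them cluster 10 had 874 (n = 2), below cluster 8.

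Igfbp5, whose product also binds extracellular matrix, was highest in mural cells. Its level there was 543 in Acta2GFP, 1109.9 in C57BL6, 478 in Cspg4dsRED, 425 in the pool and 845 in PdgfrbGFP, and 149 of 187 cells had it detected. Fibroblasts had 164, 293, 333, 208 and 319 in the same order, so these ranges did not overlap, while those of the summed counts did, with 775 CPM in the pool mural cells and 828 in the Cspg4dsRED fibroblasts. Among fibroblasts, clusters 6, 8 and 1 held 457, 433 and 428, cluster 3 held 62.6 ± 29.5 (n = 4) and cluster 9 held 8.80 ± 8.51 (n = 4), below cluster 3 in every strain label. The gene split cells within a cluster: in cluster 1, 47 of 161 cells had under 20 scaled counts and 97 had 100 or more, and in cluster 8 the numbers were 90 and 144 of 253.

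Igfbp7, a secreted protein with low affinity for IGFs that is known from blood vessels, was detected in 94.9% of all cells. It was highest in mural cells, at 1042 in Acta2GFP, 1154 in C57BL6, 1453 in Cspg4dsRED, 1044 in the pool and 1163 in PdgfrbGFP. Fibroblasts had 635, 735, 734, 644 and 686, which do not overlap with the mural values. Cluster 8 came next to the mural cells with 1019 ± 103 (n = 4), and cluster 1 was lowest with 245 ± 56.6 (n = 4), below every strain label of the next cluster. Clusters 1 and 8, both endomysial, thus lay at opposite ends for Igfbp7 while their Igfbp4 and Igfbp5 levels were near each other.

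**Figure D2:**
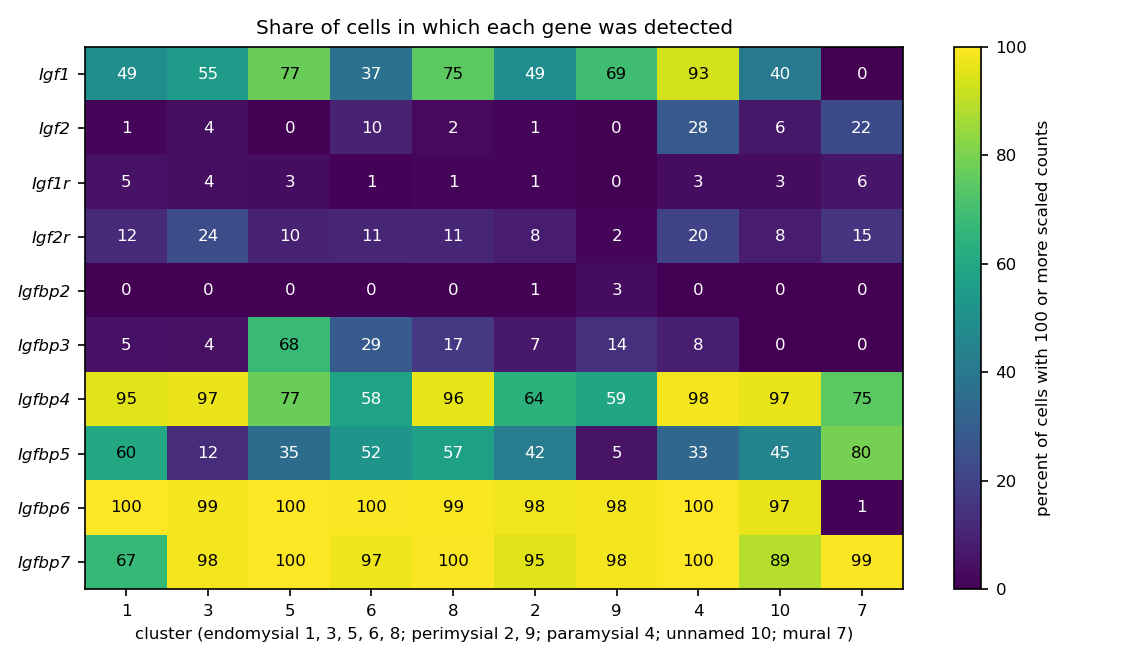
Percent of cells with 100 or more scaled counts of each gene, by cluster, with the rounded percent printed in each field. Igfbp4, Igfbp6 and Igfbp7 were detected in most fibroblasts, Igf1 in 0 to 93.3% of the cells of a cluster, and Igf1r and Igfbp2 in few cells of any cluster.

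Igfbp6, whose product prefers IGF2 over IGF1, was described as a marker of fibroblasts against mural cells, and because it was chosen for that contrast it is given with no test. Its mean scaled counts in fibroblasts were 911 in Acta2GFP, 865 in C57BL6, 1529 in Cspg4dsRED, 798 in the pool and 1019.8 in PdgfrbGFP. In mural cells they were 19.4, 11.8, 9.97, 45.2 and 28.8. The lowest fibroblast value was many times the highest mural one, and the pool had both the lowest fibroblast and the highest mural value.

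At 100 scaled counts, Igfbp6 was detected in 1548 of 1566 fibroblasts (98.9%, 98.2 to 99.3%) and in 2 of 187 mural cells (1.07%, 0.130 to 3.81%). The level chosen matters for the mural side. At 20 scaled counts the shares were 99.7% and 32.6%, at 50 they were 99.2% and 6.42%, and at 200 they were 97.5% and 0%. Every fibroblast had at least 1 count, and so did 174 of 187 mural cells. A fibroblast was higher than a mural cell in 99.8% of all pairs of cells, and 19 fibroblasts lay below the highest mural cell.

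The cells on the wrong side of 100 were few. Of the 18 fibroblasts below it, 6 lay in cluster 2, 6 in cluster 3, 2 in cluster 8, 2 in cluster 10, 1 in cluster 6 and 1 in cluster 9. The 2 mural cells above it held 103 scaled counts in the pool and 122 in Acta2GFP. Their summed levels of the fibroblast markers were 1166 and 2460, against a median of 266 over mural cells and 7824 over fibroblasts. Their mural markers summed to 11499 and 11401, near the mural median of 10121. Over the 187 mural cells, Spearman's rho of Igfbp6 with the summed fibroblast markers was 0.59, a description over cells that share plates and depth. The part of fibroblast RNA in the mural Igfbp6 counts was not tested.

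**Figure D3:**
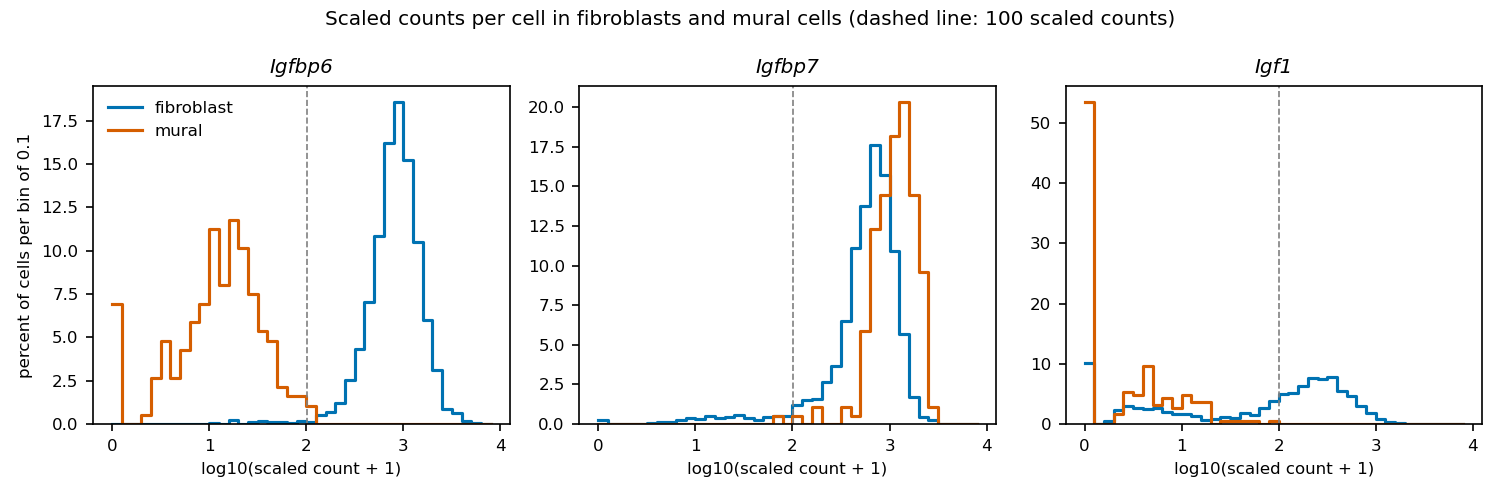
Percent of fibroblasts and of mural cells in bins of 0.1 of log10(scaled count + 1) for Igfbp6, Igfbp7 and Igf1, with a dashed line at 100 scaled counts. Igfbp6 separates the populations, with 98.9% of fibroblasts and 1.07% of mural cells at or above the line, while Igfbp7 overlaps and Igf1 has 0 mural cells above it.

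Within fibroblasts, Igfbp6 was highest in cluster 2 at 1298 ± 483 (n = 5), followed by clusters 5, 1 and 6 at 1247, 1201 and 1113. It was lowest in the paramysial cluster 4 at 631 ± 132 (n = 4) and in cluster 9 at 548 ± 65.9 (n = 4). Cspg4dsRED had 2113 in cluster 2 and 1623 in cluster 6, above the other strain labels, which ran to 1347 and 1114. Without Cspg4dsRED the level of cluster 2 was 1094 ± 185 (n = 4), below those of clusters 5 and 1, while cluster 9 was still the lowest of the fibroblasts.

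Depth moved with the levels of Igfbp6 and Igfbp7. In 21 sets of 30 or more cells of 1 cluster and strain label, cells were ordered by depth and divided into 3 equal parts, and the shallowest part had a higher mean than the deepest in 19 sets for each gene. The median Spearman's rho of level with depth was -0.29 for Igfbp6 and -0.23 for Igfbp7, against -0.11 to 0.09 for the other members. These short genes of 1112 and 1209 exonic bases also came nearest to a ceiling: the highest cell had 1.38 counts per exonic base of Igfbp6 and 1.1 of Igfbp7, ranks 12 and 36 of 46005 annotated genes, and the highest of all genes was 1.95. After a correction for removal of duplicate reads, chosen after the data were seen, the rho values were -0.16 for both. Cluster means of Igfbp6 then ran from 580.0 in cluster 9 to 1494 in cluster 5 among fibroblasts, and the mural mean was 21.8. In mural cells, where Igfbp6 was low, its rho with depth before the correction was also negative. It was -0.37 in Acta2GFP, -0.32 in Cspg4dsRED and -0.40 in PdgfrbGFP. The part of duplicate removal in these trends was not tested, nor was the part of depth in the high Cspg4dsRED values.

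**Figure D4:**
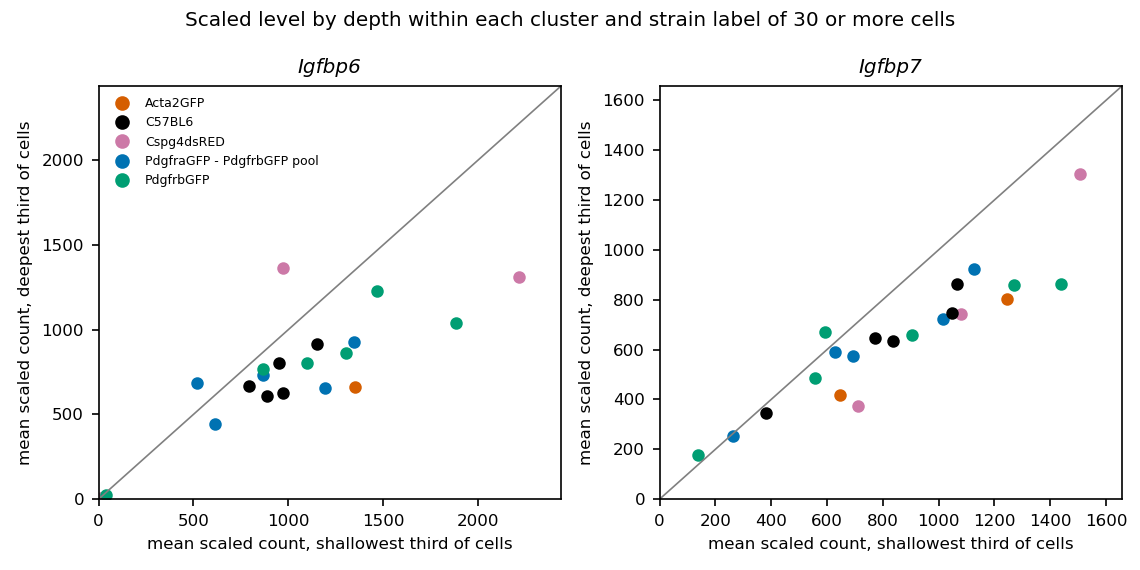
Mean scaled counts of Igfbp6 and Igfbp7 in the shallowest (x axis) and deepest (y axis) of 3 equal parts of cells, with 1 point per cluster and strain label of 30 or more cells and a diagonal of equal values. For each gene 19 of 21 points lie below the diagonal.

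Fibroblasts and mural cells were then compared over the 5 strain labels, with counts summed per population and strain label. Of all 13880 genes tested, 15.4% were called at an adjusted p under 0.05, 9.27% higher in fibroblasts and 6.15% lower. Of the 8 members tested beside Igfbp6, 5 were called, 2 higher and 3 lower. The median log2 fold change was -0.70 over these 8 and 0.46 over all genes. Igf1 was higher by 6.08 ± 0.53 (log2 fold change ± SE, edgeR quasi-likelihood test, adjusted p = 0.000258) and Igfbp3 by 5.40 ± 0.98 (adjusted p = 0.00709), each in 5 of 5 strain labels. Both are set by near-empty mural sums, of 262 counts for Igf1 and 96 for Igfbp3.

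Igf2, Igfbp5 and Igfbp7 were lower in fibroblasts in 5 of 5 strain labels. The edgeR log2 fold changes were -2.92 ± 0.67 for Igf2 (adjusted p = 0.0198), -1.44 ± 0.29 for Igfbp5 (adjusted p = 0.0109) and -0.89 ± 0.15 for Igfbp7 (adjusted p = 0.00500). The Igf2 call was lost without C57BL6 (adjusted p = 0.0548) and without PdgfrbGFP (0.0623). The Igfbp5 call was lost with the plate as the unit (0.0652). Igf1r at -1.58 ± 0.71 (adjusted p = 0.193), Igf2r at -0.51 ± 0.52 (0.598) and Igfbp4 at -0.22 ± 0.22 (0.589) were not called. For Igfbp4, with about equal levels on both sides, the values per strain label crossed. Igfbp6 had a log2 fold change of 5.58 ± 0.47, given as a description, and Igfbp2 was too low to test, with 960 counts in fibroblasts and 1 in mural cells.

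Markers of other cells differed between these groups in single strain labels. The 4 immune markers summed to 0.437 to 390.2 scaled counts in mural cells, highest in the 9 cells of C57BL6, and to 4.63 to 12.9 in endomysial cells. The 4 endothelial markers summed to 2.27 to 108 in mural cells, highest in the 11 cells of the pool, and to 4.95 to 11.6 in endomysial cells. Of the endothelial markers, each was detected in at most 0.535% of mural cells, and of the immune markers in at most 2.14%. Their part in the mural levels of Igf2 and Igfbp5 was not tested.

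The 5 endomysial clusters differed from each other in most members. An edgeR F test over the clusters, with 5.46% of 16498 genes called, called 6 of the 10 members. These were Igfbp7 (adjusted p = 1.25e-05), Igfbp3 (1.61e-05), Igfbp6 (0.000666), Igfbp5 (0.00115), Igfbp4 (0.00296) and Igf2 (0.0204). The called members are thus 5 binding proteins and 1 ligand. The fit held C57BL6, the pool and PdgfrbGFP in all 5 clusters and Acta2GFP in 3 of them, and Cspg4dsRED, with 46 of its 51 endomysial cells in cluster 6, was not in the fit.

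Each of these clusters had its own combination of binding proteins. Cluster 5 paired the highest Igfbp3 level with a low Igfbp5 level of 145 ± 52.4 (n = 3). Cluster 3 had the lowest Igfbp5 of the endomysial clusters. Cluster 1 had high Igfbp4, Igfbp5 and Igfbp6 with the lowest Igfbp7, and cluster 8 had high Igfbp4, Igfbp5 and Igfbp7. Clusters 6 and 5 had low Igfbp4 levels of 416 ± 150 (n = 4) and 387 ± 134 (n = 3), beside means of 834 to 1032 in clusters 3, 1 and 8. Unlike cluster 5, cluster 6 combined this with a high Igfbp5 level of 457 ± 93.7 (n = 4).

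Igf1, at 0.119, missed the threshold in that test, and so did Igf1r (0.963), Igf2r (0.328) and Igfbp2 (0.457). Igf1 was called when cells were thinned to 50000 counts (0.0383), with 10 cells as the minimum (0.000234), with the plate as the unit (0.00302) and by DESeq2 (0.0169). Without the pool 3 members were left, since Igf2 (0.121), Igfbp4 (0.149) and Igfbp6 (0.0744) were lost, and without PdgfrbGFP Igf2 (0.224) and Igfbp4 (0.0899) were lost. Igf2 was also lost without C57BL6 (0.172).

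Perimysial, paramysial and cluster 10 cells were each compared with the same endomysial sums, so these 3 comparisons are not independent. In perimysial cells 5.57% of 14121 genes were called, 2.32% as higher and 3.26% as lower, and 0 of the 10 members, with 2 at an unadjusted p under 0.05. These were Igfbp4, at -0.88 ± 0.24 (edgeR log2 fold change ± SE, adjusted p = 0.0954), and Igf2r, at -2.25 ± 0.85 (0.241). Igfbp4 in perimysial cells was 287 in Acta2GFP, 235 in C57BL6, 644 in Cspg4dsRED, 383 in the pool and 453 in PdgfrbGFP. In endomysial cells it was 769, 653, 632, 874 and 1010.5, higher in every label except Cspg4dsRED. Of the 51 endomysial cells of Cspg4dsRED, 46 lay in cluster 6, one of the clusters with low Igfbp4, so the class holds a different mix of clusters in that label. Without Cspg4dsRED the Igfbp4 difference was called, at -1.12 (adjusted p = 0.00386). DESeq2 called 3 members here, Igfbp2, Igf1r and Igf2r. The combined class hid the contrast between its clusters 2 and 9 in Igfbp5, at 338 ± 155 (n = 5) and 8.80 ± 8.51 (n = 4). The muscle is known only for cells of the pool and PdgfrbGFP. Their soleus cells were low in both clusters, at 16 and 4.20 in cluster 2 and 4.08 and 3.67 in cluster 9. Gastrocnemius cells of cluster 2 held 355 and 689, and cluster 9 had only 1 gastrocnemius cell in each label. The part of the muscle in this contrast was not tested.

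In paramysial cells 0.0963% of 14533 genes were called, 0.0757% as higher and 0.0206% as lower, and 0 of the 9 members tested, with 3 at an unadjusted p under 0.05. Igf1 was 499 in Acta2GFP, 405 in C57BL6, 498 in the pool and 235 in PdgfrbGFP, above the endomysial 178, 230.1, 182 and 214 in 4 of 4 strain labels. Its edgeR log2 fold change was 0.77 ± 0.28 (adjusted p = 0.565), beside a median of -0.86 over all genes. Igfbp3 was at -6.24 ± 1.74 (0.387), with levels of 0.118, 0, 47.3 and 0, and was called after thinning of cells (0.0117) and by DESeq2. Igfbp6 was at -0.49 ± 0.19 (0.619). With 3 to 6 cells in all strain labels but the pool, the spread of this comparison was wide.

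In cluster 10, 0.442% of 12455 genes were called, 0.265% as higher and 0.177% as lower, and 1 of the 9 members tested. This was Igfbp3, with levels of 0.418 in Cspg4dsRED, 0.978 in the pool and 0 in PdgfrbGFP, against 109, 88.8 and 79.9 in endomysial cells. Its edgeR log2 fold change was -7.90 ± 1.05 (adjusted p = 0.0469). This value is set by near-empty cluster 10 sums, of 15 counts. The endomysial clusters 3 and 1 were also low in Igfbp3, at means of 12.4 and 36.9, beside 170 in cluster 6. Of the 51 endomysial cells of Cspg4dsRED, 46 lay in cluster 6. The call was lost without PdgfrbGFP, which gave 8 cells (0.203), with RLE size factors (0.0586) and with cells weighted alike (0.0754), while the direction held in every setting. Igfbp7 was lower in 3 of 3 strain labels at -0.60 ± 0.22 (0.447) and was not called. Summed endothelial markers reached 153 in the PdgfrbGFP cells of this cluster, and their part in its levels was not tested.

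**Figure D5:**
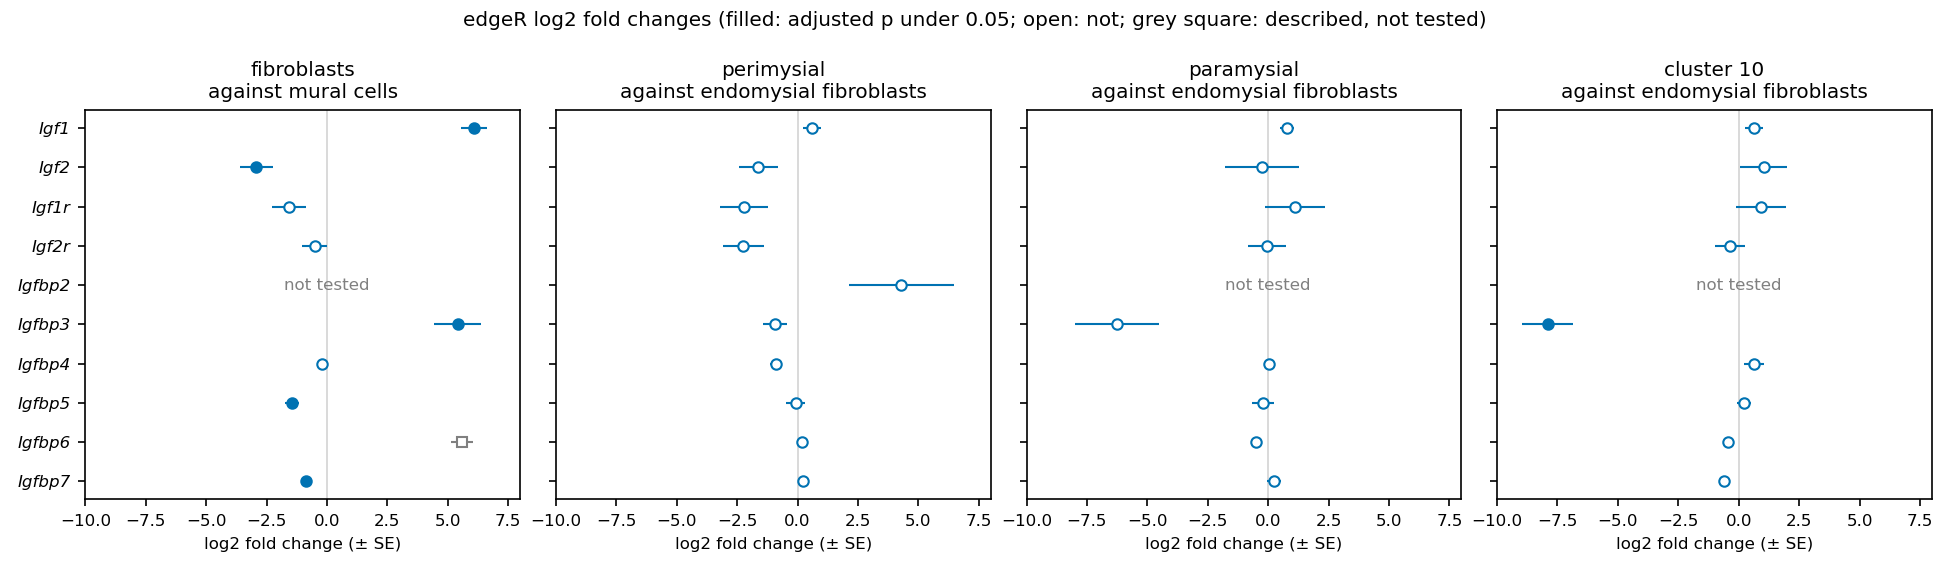
edgeR log2 fold changes ± SE of each member in 4 comparisons, filled where the adjusted p is under 0.05, open where it is not, and a grey square for Igfbp6, which was not tested between fibroblasts and mural cells. Filled points are Igf1, Igf2, Igfbp3, Igfbp5 and Igfbp7 in the first panel and Igfbp3 in the last.

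Soleus, a slow muscle, and gastrocnemius, a mixed one, had been kept apart for part of the pool and PdgfrbGFP cells, and the clustering did not use this label. Endomysial cells numbered 108 and 90 from soleus and 194 and 112 from gastrocnemius. Igf1 was 206 and 208 in soleus against 168 and 168 in gastrocnemius, in the pool and PdgfrbGFP, and Igfbp6 was 789.9 and 866 against 882 and 1173. Neither difference was called, with edgeR log2 fold changes of 0.26 ± 0.17 and -0.37 ± 0.15 (adjusted p = 0.967 for both). Of the members 0 of 10 were called, with 0 at an unadjusted p under 0.05 and 0 by DESeq2, beside 0% of 16337 genes called. Across all genes 807 had an unadjusted p under 0.05 and DESeq2 called 111. This comparison rests on n = 2 strain labels. In simulated data it recovered only 22% of changes of 3 on the log2 scale, so a member without a call cannot be read as unchanged.

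The members were set beside 28 other genes of the IGF pathway. Between fibroblasts and mural cells 21 were testable and 2 were called, both higher in fibroblasts, a share no larger than the 15.4% called over all genes. Pappa, which encodes the protease PAPP-A, was at 5.49 ± 1.54 (edgeR log2 fold change ± SE, adjusted p = 0.0439), with levels of 6.26 ± 3.63 against 0.618 ± 1.22 (SD, n = 5). Lrp1, an endocytic receptor reported to bind IGFBP3, was at 3.06 ± 0.64 (0.0128), with 475 ± 158 against 109.9 ± 116. The median log2 fold change was 0.80 over the 21 and 0.46 over all genes. The insulin receptor gene Insr at -1.04 ± 0.58 (0.295), and the adaptor genes Irs1 at 1.41 ± 0.81 (0.315) and Irs2 at 1.02 ± 1.84 (0.791), were not called, nor was H19 at 2.66 ± 2.28 (0.522).

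Of the same list, 3 of 21 testable genes were called in perimysial cells, all lower than in endomysial cells, beside 5.57% of all genes called and 3.26% called lower. Pappa was at -6.57 ± 0.78 (edgeR adjusted p = 0.00306), with 18 counts in all perimysial cells against 6637 in the endomysial ones. H19 was at -4.69 ± 1.02 (0.0405) and Lrp1 at -0.50 ± 0.11 (0.0498). Insr, Irs1 and Irs2 were at 0.01, 0.37 and -0.48 and were not called. Among the endomysial clusters 2 of 23 were called beside 5.46% of all genes, Pappa (0.0144) and its relative Pappa2 (5.62e-05). Pappa2 was seen in cluster 5, the Igfbp3 cluster, at 81.3 ± 54.8 (n = 3) with 7 of 31 cells detected, against 0.0412 at most in the other endomysial clusters. Perimysial sums also held 430 counts of Pappa2, beside 1943 in the endomysial sums, and it was not testable in that comparison. Pappa was at 15.2, 11.8 and 9.51 in clusters 6, 8 and 3 and at 0.0778 in cluster 5. Of the paramysial comparison 0 of 23, of cluster 10 0 of 20 and of the muscles 0 of 23 were called.

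Genes with the most similar pattern were sought over 32 sums of a cluster and strain label with 10 or more cells, among 20801 genes. The sums share libraries and clusters made from the same counts, so Pearson's r is a description. Igfbp6 was closest to Dcn (0.97), Serpinf1 (0.96) and Pcolce (0.95), which encode secreted proteins of the matrix. Igf1 was closest to Olfml1 (0.95), Ust and Tmsb10 (0.92 each). Igfbp5 was closest to Ntrk2 (0.79), Igfbp7 to Ndufa4l2 (0.76), Igfbp3 to Rai14 (0.81), Igf2 to Gm21969 (0.81) and Igfbp4 to Tpst1 (0.70). For the rarely detected Igf1r, Igf2r and Igfbp2 the nearest were Traf5 (0.87), Tcaf1 (0.84) and Gm20717 (0.74).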

How the data were processed

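Single cells were measured with Smart-seq2, and the authors deposited raw read counts per gene and cell. Per the study's methods, single 50-base reads were trimmed with trim galore and mapped to GRCm38 with TopHat2 and Bowtie or Bowtie2. Reads marked as "doublets", read here as duplicates, were dropped with samtools, and featureCounts counted the rest. Duplicate removal caps the counts that a short gene can reach. The annotation release and the use of strand are not given in the sources used here. The authors also dropped cells by counts, genes, missing Pdgfra and Pdgfrb, and endothelial or immune signatures, and clustered the rest with pagoda2. Doublets of cells were handled by them in the sort and by an upper limit on genes.

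Of 1754 columns, 1753 matched a labelled cell and 1 was not used. Of 46517 genes, 46005 matched GENCODE M21, and 92 ERCC spike-ins (1.31% of counts) stayed out of every total. Each cell was scaled to 500000 counts for levels. For tests, counts were summed per class and strain label (3 or more cells) and fitted with edgeR 4.0.16 in R 4.3.3, using TMM, filterByExpr, the strain label as a block and the quasi-likelihood test, with Benjamini-Hochberg adjustment over all genes tested. The block follows the design, since classes of a label share plates, although in the pool each muscle had plates of its own. The main fit is therefore paired by strain label, and a fit without the block was an alternative. The study's own test treats cells as replicates and was not used. Alternatives were DESeq2 1.42.0, RLE size factors, no filter on low counts, no block, plates as units, equal weights of cells, thinning to 50000 counts, 10 cells as the minimum and leaving out each strain label. The scripts were tested on simulated data with known changes of 3 on the log2 scale. Between 96.5% and 100% of these were recovered in the comparisons of classes and clusters, with 5 to 11 false calls. The simulation changed only well-counted genes, gave every gene the same spread and held no effect of strain label. These shares therefore do not give the power for a member in the real sums. In the paramysial comparison Igfbp3 at -6.24 was not called (edgeR adjusted p = 0.387). Between soleus and gastrocnemius only 22% were recovered, with 0 false calls. The members and lists were chosen with earlier results of these data known. All 10 members, Insr, Irs1, Irs2, Pappa, H19 and the called genes of the pathway list are named by rule.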

Additional observations from a re-analysis of the deposited data

Results flagged for a closer look

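In 6 of 37 groups of 4 or 5 strain labels, 1 strain label lay far from the others by Dixon's test, which chance does in about 1 group of 20. In endomysial cells, Cspg4dsRED had an Igf1 level of 40.0 scaled counts against 178 to 230.1 in the others, and an Igfbp6 level of 1585 against 798 to 996. Of these 51 cells 46 lay in cluster 6, and within cluster 6 Cspg4dsRED had an Igf1 level of 38.0 against 126 to 144 and an Igfbp6 level of 1623 against 803 to 1114. Its Igfbp7 level in perimysial cells was 965 against 640.1 to 711. The mural cells of C57BL6, 9 in number, had an Igf1r level of 52.1 against 8.79 to 17.2. The paramysial cells of the pool had an Igf2 level of 183 against 0 to 19.1 and an Igfbp3 level of 47.3 against 0 to 0.118, in strain labels with 6 cells at most beside its 46.

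Between soleus and gastrocnemius endomysial cells, 5 members went up in 1 strain label and down in the other, and these differences were not tested. As soleus minus gastrocnemius on the log2 scale, Igf2 was at 1.65 in the pool and -0.56 in PdgfrbGFP, and Igfbp5 was at 0.35 and -1.86. Igf2r was at -0.80 and 0.88, and Igf1r at -0.0382 and 0.15. Igfbp2 was at 5.02 and -3.59, on sums of only 216 counts in soleus and 25 in gastrocnemius.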

How the results depend on the processing

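No member changed direction in a called result under any alternative. Between fibroblasts and mural cells 4 to 5 members were called when 1 strain label was left out. The Igf2 call was also lost with 10 cells as the minimum (adjusted p = 0.0548), and DESeq2 called Igf1r in addition (0.0412). Against endomysial cells, 3 perimysial members were called by DESeq2, 1 with the plate as the unit and 0 to 1 without 1 strain label. In paramysial cells 1 was called by DESeq2, 1 after thinning and 0 without any 1 strain label. In cluster 10, 0 were called with RLE size factors, 0 with cells weighted alike, 0 with 10 cells as the minimum and 0 to 1 without 1 strain label. Among the endomysial clusters 3 to 6 were called without 1 strain label. Binding proteins detected per cell were 3.45 in fibroblasts and 3.18 in mural cells with detection at 20 scaled counts, and 3.2 to 3.27 and 2.44 to 2.56 without 1 strain label. Over all genes DESeq2 called 4336 beside 2140 in edgeR between fibroblasts and mural cells, 2068 beside 787 in perimysial cells, 796 beside 14 in paramysial cells, 993 beside 55 in cluster 10, 2573 beside 900 among the endomysial clusters and 111 beside 0 between the muscles. Without the replicate block on the strain label the numbers were 2144, 661, 8, 43, 844 and 0, and no member's call changed. Leaving out 1 strain label of the muscles leaves no test. The correction for duplicate reads, chosen after the data were seen, changed no member's call. Few mural and paramysial cells in some strain labels, and read depth for the receptors and Igfbp2, limit what could be seen.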

Other observations

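Igfbp5 in perimysial cells followed the muscle in both strain labels that kept the muscles apart, a pattern noticed after its values were seen and not tested. In gastrocnemius it was detected in 12 of 20 perimysial cells of the pool and 10 of 19 of PdgfrbGFP, at mean levels of 338 and 653 scaled counts. In soleus it was detected in 0 of 16 and 0 of 16 cells, at 10.0 and 3.90. Gastrocnemius cells lay in cluster 2 but for 1 cell of each label, and soleus cells were divided between clusters 2 and 9. The values within cluster 2 split the same way as those of the class. There the pool had 355 in 19 gastrocnemius cells and 16 in 8 soleus cells, and PdgfrbGFP had 689 in 18 and 4.20 in 7. Soleus cells of cluster 9 were also low, at 4.08 in 8 cells of the pool and 3.67 in 9 of PdgfrbGFP. Each muscle of the pool had plates of its own, and the effects of muscle and plate cannot be told apart in that label.

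In endomysial cells of the pool Igfbp5 was at 192 in gastrocnemius and 243 in soleus, and in those of PdgfrbGFP at 440.5 and 122, so the 2 labels went opposite ways in that class.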
